A study of Oryza sativa with 12 samples.

Results

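The normal culm of japonica rice at heading is described here from the 3 wild-type libraries of a series of 12. The members were chosen by their label: all 3 libraries titled as controls with the WT genotype, of the cultivar Zhonghua 11. The other 9 libraries came from 3 lines of the same cultivar, 3 from each: the line labelled TAC4-KO, that labelled TAC4L-KO, and that labelled for both genes (TAC4L/TAC4-KO, called double-KO below), whose titles say knockout where their genotype field says knockdown. All libraries were made from poly(A) RNA of culm tissue with random-hexamer priming. Nothing in the labels says that the 3 wild-type libraries came from separate plants, so the spread between them may be technical. Replicates are numbered 1 to 3 as in the titles, and wherever 3 values are given they stand in that order.

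The culm is the jointed stem of a grass. At heading its upper internodes lengthen and push the panicle out of the leaf sheath, while older tissue lays down secondary walls of cellulose, xylan and lignin that carry the load of the grain. Grass culms are also green, hold starch and sugars in their parenchyma for later transport to the grain, and carry nodes that respond to gravity. The levels below are FPKM, fragments per kilobase of gene and per 1000000 (1 M) fragments, so that genes of different length can be set side by side within a library. One condition was measured, so levels, ranks and spread are described and nothing was tested.

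The table held 55986 loci, and 29073 of them had a value above 0 in at least 1 wild-type library. A level of at least 1 FPKM in every library was reached by 17592 loci, or 31.4% of the table. At least 10 FPKM in every library was reached by 7496 loci, at least 100 by 802 and at least 1000 by 25. A further 26913 loci (48.1%) were listed at 0 in all 3 libraries. The transcript pool was concentrated: 858 loci held 50% of the summed mean FPKM, and the 1129 loci with a mean of at least 100 FPKM held 54.8%. Among loci with a mean of at least 1 FPKM, the median mean level was 9.34 FPKM over 19089 loci, and this median is the background against which the gene lists are set below. A list's own median covers all its members, those under 1 FPKM too, so where a list is compared with this background the median of its members with a mean of at least 1 FPKM is given. A listed gene is called checked where its name stands in the RefSeq table on the stated chromosome and in order along it, or where members of its family do. Only checked genes are described by name, except TAC4 and TAC4L, which follow the labels.

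**Figure D1:**
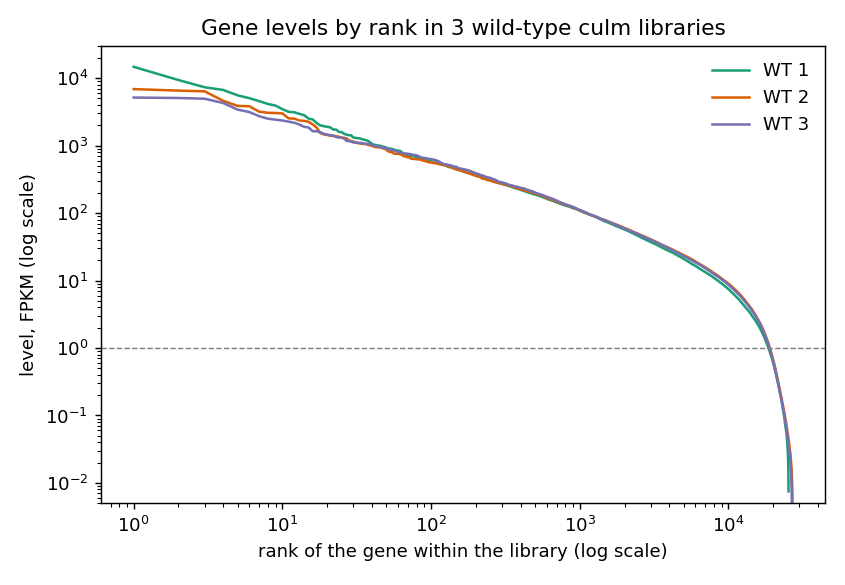
Level of every gene above 0 in FPKM (vertical axis, log scale) against its rank within the library (horizontal axis, log scale), 1 line for each of the 3 wild-type libraries, with a dashed line at 1 FPKM. The lines separate at the highest ranks, where replicate 1 reaches 14708 FPKM against 6875 and 5151 FPKM at the top of replicates 2 and 3, and run close together from about 100 to 1000 FPKM.

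By the spacing of low FPKM values, the libraries were 9.79, 20.9 and 21.0 M fragments deep. At 1 FPKM a gene of 1 kilobase thus had about 9.79, 20.9 and 21.0 fragments, with counting errors of 32.0%, 21.9% and 21.8%, and at 10 FPKM the counting errors were 10.1%, 6.91% and 6.90%. Across the 29073 genes above 0 in any of the 3 libraries, Pearson's r on log2(FPKM + 1) was 0.976 between replicates 1 and 2, 0.968 between 2 and 3 and 0.951 between 1 and 3. Spearman's rho was 0.967, 0.963 and 0.945 in the same order. These correlations are across genes, which are not independent replicates, and they carry no p-value. No library was a copy of another: at most 1 of 19089 genes whose mean reached 1 FPKM had the same value in both libraries of a pair.

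The summed FPKM was close in the 3 libraries, but the share taken by the 10 highest genes was 10.3%, 7.06% and 5.76%, or 7.71% ± 2.33 (SD, n = 3). Replicate 1 carried the largest share. LOC_Os09g01000, singled out after its values were seen, had 14708, 458 and 215 FPKM and by itself held 2.34% of the FPKM of replicate 1, against 0.0730% and 0.0345% in replicates 2 and 3. Its neighbour LOC_Os09g00999, singled out likewise, had 2162, 130.2 and 53.9 FPKM. These are the lowest-numbered loci of chromosome 9 in the table, and the RefSeq table of assembly ASM3414082v1 places 1533 of its 1756 ribosomal RNA genes at that end of the chromosome, ahead of the first protein-coding gene. Whether such RNA or the lower depth of replicate 1 bears on these values was not tested. Without both loci the 10 highest genes held 8.69%, 7.07% and 5.77%.

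The highest locus by mean was LOC_Os11g06720 with 9372, 6531 and 5076 FPKM (6993 ± 2185, SD, n = 3). LOC_Os03g46770 followed with 7321, 6875 and 4277 FPKM (6158 ± 1644). Neither the table nor the reference pairs these identifiers with a gene name. Among the listed genes, which are taken up by role below, 17 stood within the 100 highest loci of the culm.

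Cellulose is spun at the plasma membrane by complexes of cellulose synthase subunits, and in rice CESA4, CESA7 and CESA9 form the complexes of the secondary wall; loss of any of them makes the culm brittle. The levels of the 3 lay close together, near one another in rank. CESA9 (LOC_Os09g25490) had 344, 315 and 199.9 FPKM, a mean of 286 ± 76.2 (SD, n = 3) and rank 286. CESA7 (LOC_Os10g32980) had 358, 283 and 205 FPKM, a mean of 282 ± 76.2 and rank 292. CESA4 (LOC_Os01g54620) had 338, 252 and 192 FPKM, a mean of 260.4 ± 73.1 and rank 328. Within each replicate the 3 subunits differed less than the replicates did: all 3 were highest in replicate 1 and lowest in replicate 3, and their sums were 1039, 849.8 and 598 FPKM.

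The primary wall subunits, used while cells still expand, were lower and more uneven among themselves. Their 6 listed genes were all at 1 FPKM or more in every library, with a median mean of 48.7 FPKM and sums of 356, 243 and 341 FPKM. CESA1 had 119, 61.8 and 130.2 FPKM. CESA3 had 103, 89.1 and 95.3 FPKM. CESA8 had 96.5, 65.9 and 78 FPKM. In every library these 3 lay above the remaining subunits. CESA2 had 20, 18.4 and 13.6 FPKM. CESA6 had 12.6, 6.43 and 19 FPKM. CESA5 had 4.77, 1.73 and 4.32 FPKM and was the lowest in every library. CESA3 was the steadiest of the 6, with a coefficient of variation (CV, the SD as a percentage of the mean) of 7.22%, and CESA6 the least steady at 49.7%. Replicate 2 was lowest for 5 of the 6, against 17.3% of all genes whose mean reached 1 FPKM. After median-of-ratios scaling of the libraries, described with the lignin genes below, the count was again 5, against 27.2%. The secondary wall subunits differed, as their sum in replicate 2 lay between the other replicates.

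Brittle culm genes, named for mutants whose stems snap, were 7 in number and all at 1 FPKM or more in every library, with a median mean of 14.5 FPKM. BC1 (LOC_Os03g30250), a COBRA-like protein that binds cellulose, had 38.5, 24.4 and 21.1 FPKM (28 ± 9.25, SD, n = 3). GLU1 (LOC_Os03g21210), a membrane-bound endo-glucanase, had 20.2, 12.4 and 10.9 FPKM (14.5 ± 5.02). Both were highest in replicate 1 and lowest in replicate 3, but the list had no common order. Replicate 1 was the highest for 3 of the 7, against 23.9% of all genes whose mean reached 1 FPKM. It was the lowest for 4, against 47.3% of all such genes. After median-of-ratios scaling these counts were 3 and 2, against 34.6% and 35.9%. Of the 6 listed NAC and MYB regulators of the secondary wall, 5 were at 1 FPKM or more in every library, with a median mean of 4.59 FPKM over those with a mean of at least 1, against 9.34 FPKM over all such genes; the names of these regulators could not be checked, so they enter as counts only.

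**Figure D2:**
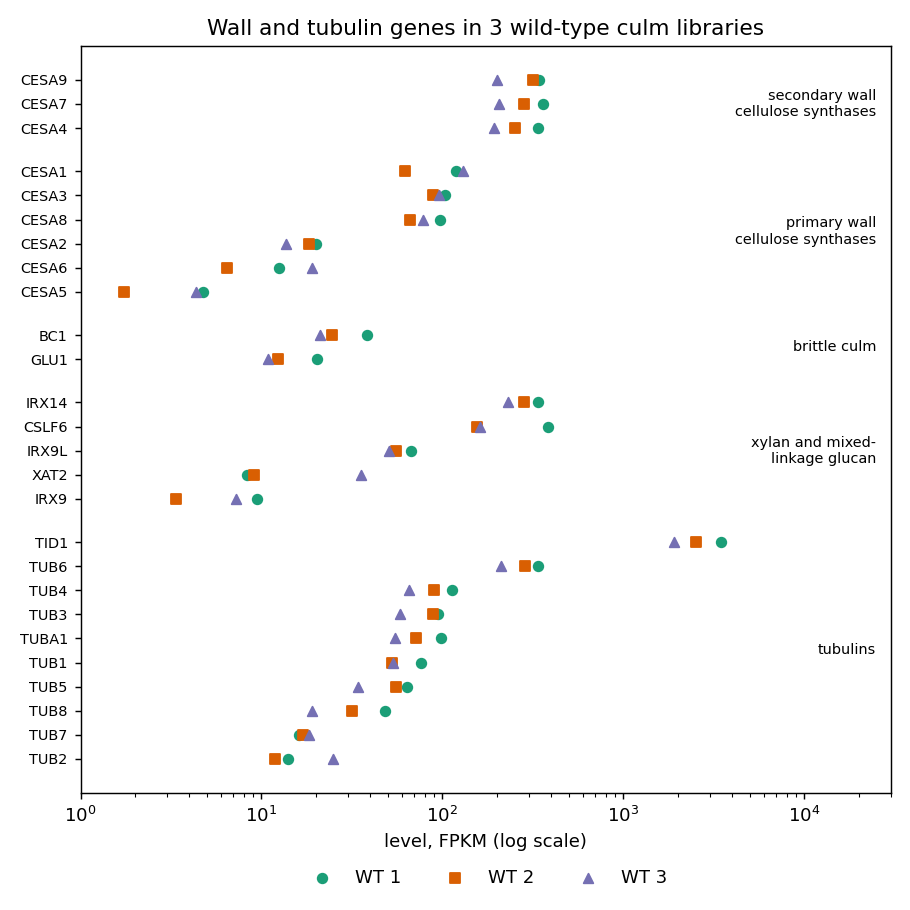
Level in FPKM (horizontal axis, log scale) of each checked cellulose synthase, brittle culm, xylan and tubulin gene, with 1 symbol for each of the 3 wild-type libraries (WT 1 to WT 3). CESA4, CESA7 and CESA9 sit between 192 and 358 FPKM, and most tubulin genes run in the order replicate 1, replicate 2, replicate 3 from high to low.

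Xylan, the main hemicellulose of grass walls, is built by glycosyltransferases of the IRX families, and mixed-linkage glucan by CSLF6. All 8 listed genes were at 1 FPKM or more in every library, with a median mean of 99.5 FPKM. IRX14 (LOC_Os06g47340) had 339, 284 and 232 FPKM. IRX9L had 66.8, 55.3 and 50.8 FPKM. IRX9, of the same family as IRX9L, was much lower at 9.4, 3.38 and 7.24 FPKM. CSLF6 (LOC_Os08g06380) had 386, 154 and 161 FPKM, with replicate 1 standing apart above the other replicates (CV 56.4%). XAT2, an arabinosyltransferase that decorates xylan, had 8.28, 9.09 and 35.6 FPKM and stood apart in the other direction, with replicate 3 the high one (CV 88.1%).

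Lignin stiffens the wall, and its monomers are made from phenylalanine in a chain that PAL opens. Of 29 listed genes, 24 were at 1 FPKM or more in every library, 9 had a mean of at least 100 FPKM, and together they held 1.07% of all FPKM. PAL at LOC_Os02g41630 was the highest listed gene of this pathway and rank 8 of the whole culm, with 4552, 3176 and 2263 FPKM (3330.1 ± 1152, SD, n = 3). Its tandem neighbour LOC_Os02g41650 had 812, 561 and 643 FPKM. The PAL06 copy LOC_Os02g41680 had 31.4, 19.8 and 40.4 FPKM. Its close relative LOC_Os02g41670 had 6.97, 8.57 and 38.4 FPKM, with replicate 3 the high one. How reads shared by these near-identical copies were assigned is not given in the sources used here, so the split among them is uncertain.

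The 4CL enzymes activate the hydroxycinnamic acids that PAL and its partner yield. 4CL3 led them with 445, 296 and 522 FPKM. 4CL4 had 28.6, 24.7 and 28.8 FPKM and was steady (CV 8.46%), whereas 4CL5 had 7.13, 8.68 and 43.1 FPKM, with replicate 3 the high one (CV 104%). 4CL1 had 2.76, 1.87 and 1.43 FPKM, near the threshold of 1 FPKM.

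HCT enzymes shift the intermediates towards the monolignols. HCT1 had 143, 109.8 and 128 FPKM. HCT2 had 117, 84 and 211 FPKM and was above HCT1 in replicate 3 alone. Methyltransferases then set the kind of monomer, and most of the checked ones were high. ROMT-15 had 281, 236 and 1057 FPKM, with replicate 3 far above the other replicates (CV 87.9%). ROMT-17, its tandem neighbour, had 313, 416 and 365 FPKM and did not share that pattern. COMT1 had 419, 292 and 483 FPKM. COA26, beside the ROMT genes on chromosome 8, was low at 2.34, 3 and 2.04 FPKM. CAD2, the alcohol dehydrogenase that ends monolignol synthesis, had 88.1, 51.3 and 115 FPKM. Replicate 3 was the highest for 16 of the 26 lignin genes whose mean reached 1 FPKM, against 37.5% of all such genes. Median-of-ratios scaling of the libraries (factors 0.929, 1.07 and 1.01) was chosen for these counts after the data were seen, and with it the count was 15 of the 26, against 37.6% of all such genes. A CV over 50% was found for 7 of the 26, against 14.7% of all such genes.

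Cortical microtubules guide where cellulose is laid down. All 12 listed tubulin genes were at 1 FPKM or more in every library, with a median mean of 67.7 FPKM. TID1 (LOC_Os11g14220), an α-tubulin, had 3472, 2509.9 and 1902 FPKM (2628 ± 792, SD, n = 3) and rank 13. The other checked α-tubulin, TUBA1, had 98, 71.1 and 54.6 FPKM. Among the β-tubulins, TUB6 led with 338, 287 and 212 FPKM. A middle group of 4 β-tubulins had means from 50.9 to 89.7 FPKM. TUB4 had 113, 90.5 and 65.6 FPKM. TUB3 had 94.7, 88.2 and 58.4 FPKM. TUB1 had 76.1, 52.5 and 53.6 FPKM. The fourth of them, TUB5, shared with TUB4 and TUB3 the order replicate 1, 2, 3 from high to low. It had 63.4, 55.2 and 34.2 FPKM. TUB8, also in that order, had 48.3, 31.6 and 19.1 FPKM. TUB7 had 16.2, 17.1 and 18.3 FPKM and was the steadiest tubulin (CV 6.02%). TUB2 had 14, 11.8 and 24.9 FPKM, with replicate 3 the high one. Replicate 1 was the highest for 10 of the 12 tubulins, against 23.9% of all genes, and replicate 3 the lowest for 9, against 35.4%. Both counts were the same after median-of-ratios scaling, where the shares of all genes were 34.6% and 36.9%. None had a CV over 50%, against 14.7% of all genes.

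Expansins loosen walls for growth. Of 11 listed genes, 6 were at 1 FPKM or more in every library, and the list was carried by EXPB3 (LOC_Os10g40720) with 264, 119.6 and 351 FPKM. EXPB4, beside it on chromosome 10, had 30.8, 20.6 and 17.9 FPKM. EXPA10 had 13.2, 11 and 8.08 FPKM. A pair of α-expansins had replicate 3 above the other replicates. EXPA2 had 4.56, 4.64 and 13.7 FPKM. EXPA5 had 6.49, 3.54 and 12 FPKM. EXPA7 had 4.3, 2.86 and 1.45 FPKM. The last pair of checked genes lay under 1 FPKM in replicate 2. EXPB6 had 1.53, 0.414 and 3.94 FPKM. EXPA4 had 2.67, 0.898 and 2.14 FPKM. The 8 expansins with a mean of at least 1 FPKM had a median mean of 7.49 FPKM, against 9.34 FPKM over all such genes.

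Nuclear genes of photosynthesis were among the highest in the culm. All 32 listed photosynthesis genes were at 1 FPKM or more in every library, 21 had a mean of at least 100 FPKM, and together they held 2.17% of all FPKM. The Rubisco small subunit, which carries part of the carbon-fixing enzyme, was led by LOC_Os12g19381 of the RBCS-A type with 6680.2, 6372 and 3139 FPKM and rank 3. RBCS-C had 20, 18.5 and 5.92 FPKM and the largest spread of the checked genes (CV 52.2%). The split of reads between the RBCS copies is uncertain for the reason given for PAL. ALDP, the plastid aldolase of the Calvin cycle, had 1190.4, 1197 and 647 FPKM. RCA, which reactivates Rubisco, had 861, 939 and 486 FPKM. PSAH, a subunit of photosystem I, had 469.9, 549.6 and 275 FPKM. CAB1R, an LHCB1-type antenna gene, was the lowest of the 32 at 3.42, 2.21 and 3.43 FPKM.

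The photosynthesis genes differed between replicates in the same direction. Replicate 3 was the lowest for 30 of the 32, against 35.4% of all genes whose mean reached 1 FPKM, and the summed FPKM of the list was 16354, 16326 and 8218. The median member lay 0.59 log2 units below its own mean over the libraries in replicate 3, where the median of all genes lay 0.02 above. After median-of-ratios scaling replicate 3 was again the lowest for 30 of the 32, against 36.9% of all genes. In bulk tissue a smaller share of green cells and less of these transcripts per cell cannot be told apart.

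**Figure D3:**
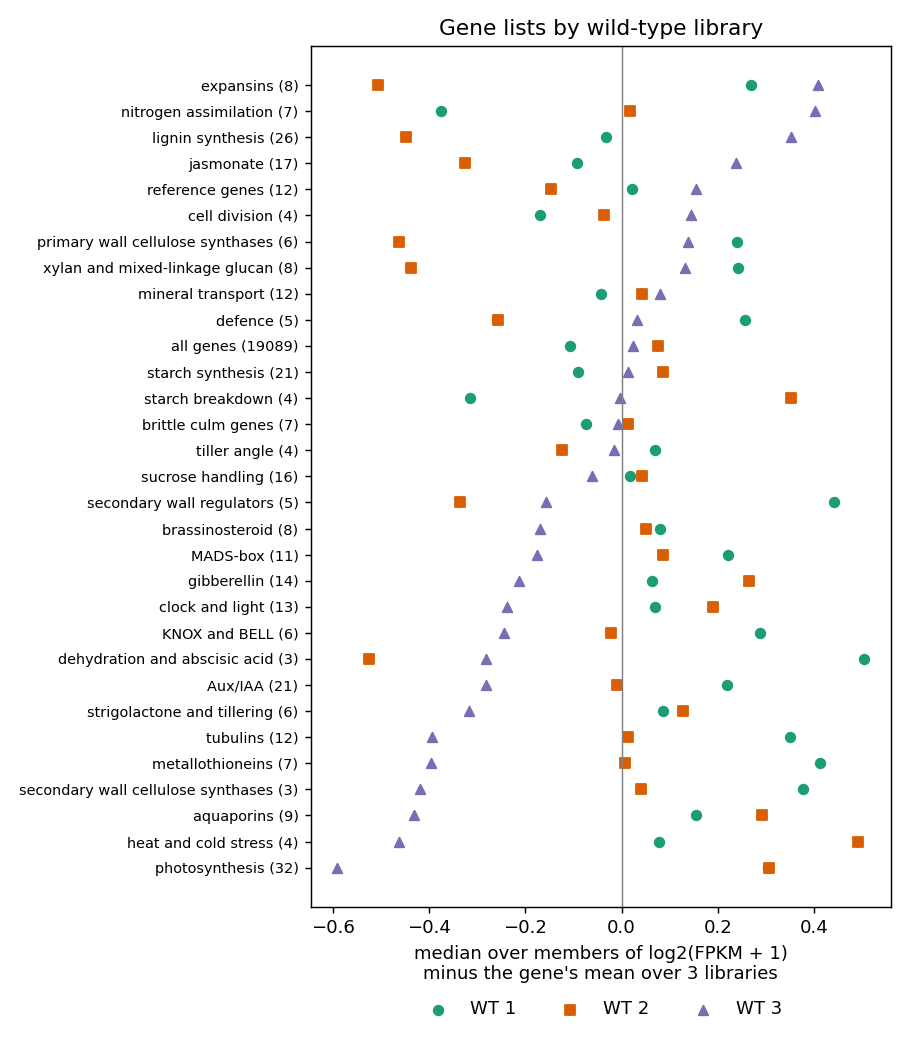
For each gene list with at least 3 members at a mean of 1 FPKM or more (number of members in brackets) and for all genes, the median over members of log2(FPKM + 1) minus the gene's own mean over the 3 libraries (horizontal axis), with 1 symbol for each wild-type library (WT 1 to WT 3). Replicate 3 lies lowest for photosynthesis at -0.59 and highest for expansins at 0.41, and for all genes the 3 medians lie between -0.11 and 0.08.

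Starch in the culm is a reserve filled before heading and drawn on afterwards. Of 23 listed genes of starch synthesis, 18 were at 1 FPKM or more in every library, and none reached a mean of 100 FPKM. Among the checked names, SBE1, a branching enzyme, had 42.6, 43.5 and 44.1 FPKM and the smallest spread of the checked genes (CV 1.68%). SSII-2, a starch synthase, had 46.7, 38.1 and 29.6 FPKM. SSII-1, of the same family, had 19.1, 24.1 and 18.4 FPKM. ISA1, a debranching isoamylase, had 21.2, 22.2 and 19.3 FPKM. SSI, a starch synthase of another class, had 9.54, 9.33 and 8.19 FPKM. SSII-3, the isoform best known from the grain, had 0.819, 2.76 and 5.06 FPKM and the largest spread of the checked genes (CV 73.7%). AGPS2, a small subunit of ADP-glucose pyrophosphorylase, had 2.73, 3.27 and 2.15 FPKM. GBSSI, the granule-bound synthase of the endosperm, had 0.139, 0.13 and 0.0645 FPKM, under 1 FPKM in every library.

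Starch breakdown was represented by 6 genes, of which 4 were at 1 FPKM or more in every library. DPE1, a plastid disproportionating enzyme, had 97.4, 124 and 109 FPKM. DPE2, its cytosolic counterpart, had 5.93, 15.6 and 12.5 FPKM. RAMY3D, an α-amylase, had 8.35, 6.51 and 2.63 FPKM, and AMY1A, the amylase of germinating grain, was listed at 0 in all 3 libraries.

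Sugar handling rested on a few high genes. Of 24 listed genes, 15 were at 1 FPKM or more in every library, 3 were listed at 0 in all, and the highest was SWEET4 (LOC_Os02g19820), a hexose transporter, with 999, 594 and 692 FPKM and rank 58. CIN1, a cell wall invertase that splits sucrose outside the cell, had 106, 105 and 594 FPKM, with replicate 3 well above the other replicates (CV 105%). SWEET13, a sucrose transporter of the same family, had 326, 275 and 139 FPKM. SUS2, a sucrose synthase, had 108, 96.5 and 113 FPKM. SUT2, the sucrose carrier of the vacuole membrane, had 97, 100.2 and 106 FPKM and the smallest spread of the checked genes (CV 4.53%). The 5 phloem markers (SUT1, SUT2, SWEET11, SWEET13 and SWEET14) summed to 622, 626 and 367 FPKM, and 4 of them were at 1 FPKM or more in every library. The sum did not hold for each marker: SWEET13 and SWEET14 were lowest in replicate 3, whereas SUT1 was lowest in replicate 1 and SUT2 highest in replicate 3.

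**Figure D4:**
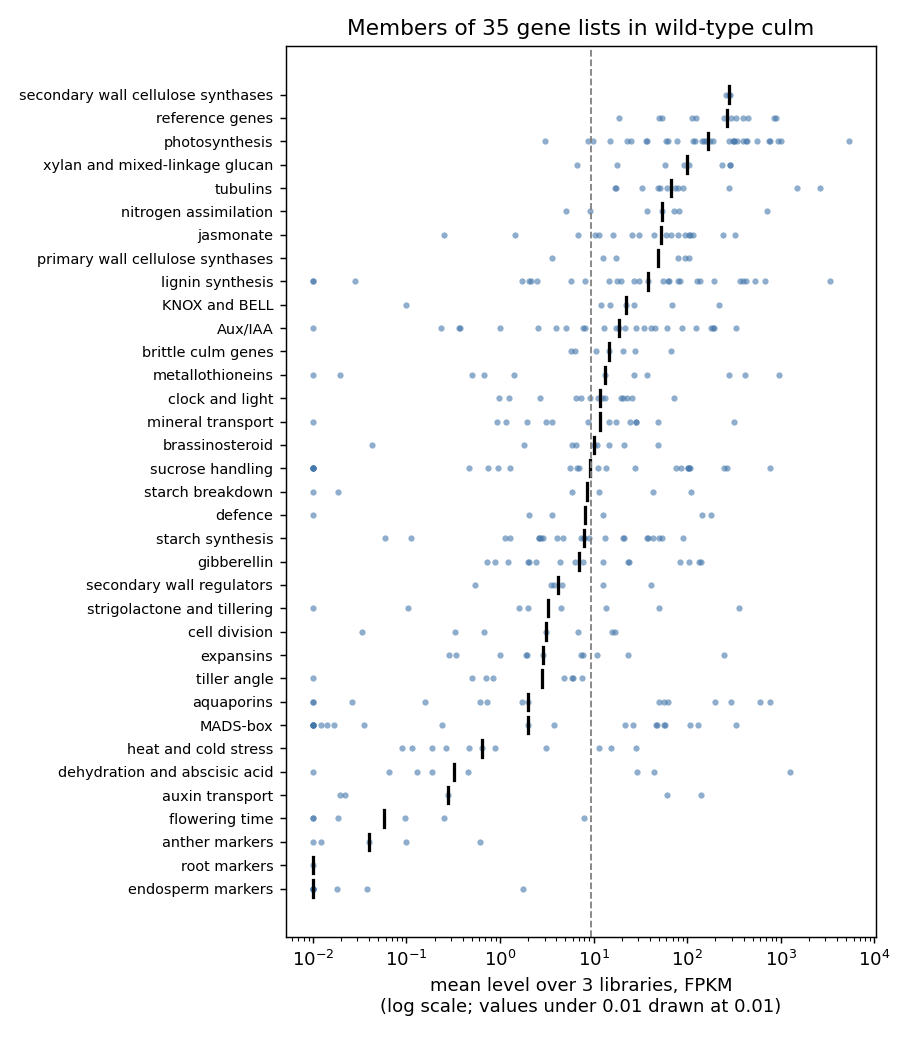
Mean level over the 3 wild-type libraries in FPKM (horizontal axis, log scale, values under 0.01 drawn at 0.01) of every listed gene, 1 dot a gene, in 35 lists ordered by their median (black bar). The dashed line marks the median of 9.34 FPKM over all genes whose mean reached 1 FPKM, whereas each bar also covers members under 1 FPKM, so a bar left of the line does not set the list below the background; secondary wall cellulose synthases, reference genes and photosynthesis genes have the highest medians, and the endosperm, root and anther markers the lowest.

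Aquaporins let water cross membranes. Of 15 listed genes, 7 were at 1 FPKM or more in every library, against 31.4% of all loci. A mean under 1 FPKM was found for 6, against 36897 of all 55986 loci, and a mean of at least 100 FPKM for 4. PIP1-1 (LOC_Os02g44630) had 834, 969.7 and 519.7 FPKM and rank 54. PIP1-2 had 731, 587 and 487 FPKM. PIP2-1 had 303, 329 and 241 FPKM. TIP2-2, of the vacuolar type, had 194, 268 and 133 FPKM. TIP1-1, also vacuolar, was the steadiest at 51.3, 47.1 and 50.1 FPKM (CV 4.38%). PIP2-4 was the least steady at 2.91, 2.48 and 0.65 FPKM (CV 59.6%). Replicate 3 was the lowest for 8 of the 9 aquaporins with a mean of at least 1 FPKM, with and without median-of-ratios scaling, against 36.9% and 35.4% of all such genes.

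Metallothioneins are small cysteine-rich proteins that bind metals. Of 11 listed genes, 6 were at 1 FPKM or more in every library. OsMT2c (LOC_Os01g74300) had 1589.6, 743 and 529 FPKM (CV 58.8%). OsMT2b had 619.8, 375 and 256 FPKM. MT2A had 361, 249 and 221 FPKM. All 3 were highest in replicate 1 and lowest in replicate 3. LOC_Os12g38270, of the MT4A type, ran the other way with 12.4, 24.2 and 44.1 FPKM (CV 59.6%). MT1A was the steadiest with 13.7, 13.2 and 12.5 FPKM (CV 4.64%).

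Nitrogen assimilation was led by the cytosolic glutamine synthetase GS1-1 (LOC_Os02g50240) with 514, 540.3 and 1069 FPKM; this isoform serves the export of nitrogen through the phloem, and replicate 3 was the high one. The plastid isoform GS2 had 81.3, 94.8 and 70.1 FPKM (CV 15%). FD-GOGAT, its ferredoxin-dependent partner, had 26.7, 69.9 and 66.3 FPKM. The ammonium transporter AMT1-1 had 25, 23.3 and 63.2 FPKM (CV 60.6%), again with replicate 3 above the other replicates. All 7 listed nitrogen genes were at 1 FPKM or more in every library.

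Mineral transport held 14 listed genes, 11 of them at 1 FPKM or more in every library. The phosphate transporter PT8 had 218, 183 and 553 FPKM (CV 64.2%), with replicate 3 the high one. PT1, of the same family, had 27.9, 24.4 and 21.4 FPKM. The silicon channel LSI6, which unloads silicon from the xylem in shoots, had 56.2, 49 and 41.5 FPKM. LSI1, known as the silicon channel of roots, had 29.7, 25.6 and 30.9 FPKM in these culm libraries and was steady (CV 9.7%). LSI2, its efflux partner in roots, was listed at 0 in all 3 libraries.

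Among hormone genes, 20 of 25 auxin repressors of the Aux/IAA family were at 1 FPKM or more in every library. That level was reached by 73.0% of all 408 listed genes and by 31.4% of all loci. The median mean of the 25 was 18.5 FPKM. IAA21 had 396, 349 and 247 FPKM. IAA2 had 173, 305 and 96.9 FPKM. IAA17 had 218, 188 and 154 FPKM. IAA24, with replicate 1 the high one, had 285, 136 and 121 FPKM. IAA1 was the steadiest at 130.2, 115 and 132 FPKM (CV 7.45%). IAA9 was the least steady at 7.12, 1.78 and 2.96 FPKM (CV 71%). Of the 5 listed auxin carriers, 2 were at 1 FPKM or more in every library.

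Gibberellin drives internode elongation. The signalling genes SLR1, GID1 and GID2 lay above all 5 checked biosynthetic genes in every library, and SPY did not. SLR1, the DELLA repressor, had 181, 123 and 121 FPKM. GID1, the receptor, had 138, 150.4 and 114 FPKM. GID2, the F-box protein that marks SLR1 for breakdown, had 87.3, 89 and 75.1 FPKM (CV 9.05%). SPY, which acts on SLR1, had 18.4, 29.3 and 24.2 FPKM. KAO, an oxidase of the biosynthetic route, had 3.88, 7.11 and 2.21 FPKM and the largest spread of the checked genes whose mean reached 1 FPKM (CV 56.7%). Of 16 listed genes, 13 were at 1 FPKM or more in every library, and replicate 3 was the lowest for 10 of the 14 with a mean of at least 1 FPKM, against 35.4% of all such genes. After median-of-ratios scaling it was the lowest for 9, against 36.9%.

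Brassinosteroids also promote elongation and bend the lamina joint. BRI1, their receptor, had 71.2, 33.5 and 40.1 FPKM. BAK1, its co-receptor, had 11.2, 10.5 and 11.2 FPKM and the smallest spread of the checked genes (CV 3.67%). BZR1, the transcription factor at the end of the pathway, had 29.2, 15.7 and 18.2 FPKM. CYP85A1, which makes castasterone, had 10, 22.9 and 11.4 FPKM. Of 9 listed genes, 8 were at 1 FPKM or more in every library. Strigolactones restrain tillering, and their receptor D14 had 318, 469 and 283 FPKM and rank 209. The F-box partner D3 had 12.9, 14 and 14.2 FPKM (CV 5.31%). D17, a synthesis gene, had 3.87, 4.95 and 4.73 FPKM. D10, another, had 4.2, 0.665 and 1.08 FPKM, with replicate 1 the high one.

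Tiller angle genes set how upright a shoot stands. Of 8 listed genes, 4 were at 1 FPKM or more in every library, against 31.4% of all loci, and the highest mean was 7.56 FPKM. The 4 with a mean of at least 1 FPKM had a median mean of 5.99 FPKM, against 9.34 FPKM over all such genes. TAC4 (LOC_Os02g25230), a gene after which the mutant lines are labelled, had 7.32, 4.75 and 5.59 FPKM (5.89 ± 1.31, SD, n = 3) and rank 12010, with 37.1% of the genes at a mean of 1 FPKM or more below it. TAC4L (LOC_Os04g19140) had 0.883, 0.453 and 0.798 FPKM (0.711 ± 0.228) and rank 19960, under 1 FPKM in every library. TAC4 was above TAC4L in each of the 3 libraries. LA1, the LAZY1 protein of shoot gravitropism, had 6.07, 6.06 and 6.16 FPKM, a CV of 0.869%, the smallest of the checked genes on this list. The counting errors of a gene of 1 kilobase were larger even at 10 FPKM, at 10.1%, 6.91% and 6.90%, so this CV is no measure of steadiness. HSFA2D, a heat-shock factor upstream of LAZY1, had 4.93, 11.6 and 6.16 FPKM. WOX11, a homeobox gene of the same route, had 5.15, 2.54 and 6.87 FPKM.

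Of 18 listed jasmonate genes, 16 were at 1 FPKM or more in every library, against 73.0% of all 408 listed genes and 31.4% of all loci. The median mean of the 18 was 51.9 FPKM. Repressors of the TIFY (JAZ) family led them. TIFY6A had 262, 346 and 373 FPKM. TIFY10B had 199.8, 157 and 365 FPKM. COI1B, a receptor component, had 123, 116 and 107 FPKM. OPR7, an enzyme of jasmonate synthesis, had 103, 82.1 and 135 FPKM. The steadiest and the least steady were both repressors. TIFY6B had 16.2, 15.5 and 17.1 FPKM (CV 4.89%). TIFY10C had 1.19, 1.62 and 17.4 FPKM (CV 137%). Replicate 3 was the highest for 12 of the 17 genes whose mean reached 1 FPKM, against 37.5% of all such genes, and for 10 of them after median-of-ratios scaling, against 37.6%. A CV over 50% was found for 6 of the 17, against 14.7% of all such genes.

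A mean under 1 FPKM was found for 5 of the 8 listed dehydration genes and for 7 of the 11 heat and cold genes. Over the whole table it was found for 36897 of 55986 loci, a similar share. LIP9, a dehydrin, had 1729, 1045 and 1001 FPKM and rank 26. NCED3, the rate-limiting enzyme of abscisic acid synthesis, had 99.2, 19.7 and 14.2 FPKM (CV 107%), with replicate 1 the high one. SALT, a lectin, had 27.1, 18.8 and 40.6 FPKM. Of 11 heat and cold genes, 4 were at 1 FPKM or more in every library. DREB1C, a cold-responsive transcription factor, spanned 64.2, 20.3 and 1.27 FPKM (CV 113%), with replicate 1 the high one. DREB1A, its relative, had 2.37, 5.43 and 1.51 FPKM. The small heat-shock protein gene HSP17.9A had 13.8, 20.7 and 11.7 FPKM. HSP17.7 had 13.7, 11.3 and 9.12 FPKM.

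Of 6 defence genes, 5 were at 1 FPKM or more in every library. WRKY71, a transcription factor, had 166, 118 and 145 FPKM. WRKY24 had 16.2, 10.8 and 10.9 FPKM. PBZ1, a pathogenesis-related protein, had 2.59, 1.28 and 2.32 FPKM.

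Clock and light genes had a median CV of 21.7%, against 26.5% over all genes. Of 14, 13 were at 1 FPKM or more in every library, and none of those with a mean of at least 1 FPKM had a CV over 50%, against 14.7% of all such genes. GI, which links the clock to flowering, had 75, 80.3 and 60.3 FPKM. The phytochrome gene PHYB had 30.4, 28 and 18.5 FPKM. PHYC had 25, 26 and 17.3 FPKM. ELF3-1, of the evening complex, had 22.3, 23.8 and 12.5 FPKM. PRR37 was the steadiest at 2.94, 2.87 and 2.29 FPKM (CV 13.1%). PRR1 was the least steady at 3.7, 6 and 9.72 FPKM (CV 46.9%). Of 6 flowering-time genes only HD1 reached 1 FPKM, with 7.22, 9.16 and 7.23 FPKM, and the florigen gene HD3A, which acts in leaves, had 0, 0.0564 and 0 FPKM.

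Meristem and organ identity genes gave a mixed picture. Among 21 listed MADS-box genes, 11 were at 1 FPKM or more in every library and 4 were listed at 0 in all. The highest are given first, and the lowest checked member at 1 FPKM or more in every library had a mean of 2.01 FPKM. MADS14 had 385, 376 and 249 FPKM. MADS15 had 133, 108 and 79 FPKM. MADS55, of another branch, had 128, 133 and 130.3 FPKM (CV 1.64%). MADS22 had 56.3, 63.2 and 54 FPKM. Of the 7 floral organ markers, only MADS16 was at 1 FPKM or more in every library, with 34.8, 26.4 and 18.5 FPKM, and 3 were listed at 0.

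KNOX genes keep meristem and node cells from differentiating. With the BELL genes, 6 of 7 were at 1 FPKM or more in every library. OSH15, needed for internode growth, had 184, 271 and 204 FPKM. OSH3 had 23.4, 17.3 and 40.4 FPKM. OSH1 had 30.6, 21.4 and 14.5 FPKM. OSH71 was the steadiest at 13.3, 11.6 and 11.5 FPKM (CV 8.37%). Of 7 cell division genes, 4 were at 1 FPKM or more in every library. Those with a mean of at least 1 FPKM had a median mean of 11.3 FPKM, against 9.34 FPKM over all such genes. CDKA1, the general cell cycle kinase, had 14.2, 19.6 and 17.1 FPKM. PCNA, the replication clamp, had 10.9, 12 and 24.6 FPKM. CDKB1-1, a kinase of dividing cells, had 6.2, 5.92 and 8.29 FPKM. CDKB2-1, of the same type, had 2.97, 3.35 and 3 FPKM.

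The listed endosperm, anther and root markers were near 0. The 7 endosperm storage proteins summed to 1.09, 1.89 and 2.52 FPKM, almost all of it from GLUA2 with 1.09, 1.8 and 2.44 FPKM, and 4 were listed at 0 in all 3 libraries. The 5 anther markers summed to 0.692, 0.851 and 0.732 FPKM, with none at 1 FPKM. The root list held only 1 locus, whose name could not be checked, and it was listed at 0. Against the label of culm tissue, secondary wall cellulose synthases and photosynthesis genes were high. Storage and anther markers and the 1 root locus were at or near 0. LSI1, given above as the silicon channel of roots and not on the root list, had 25.6 to 30.9 FPKM. MADS16, at 18.5 to 34.8 FPKM, was the exception among the floral organ markers.

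Genes that laboratories use as constant references were high and comparatively steady. All 12 listed genes were at 1 FPKM or more in every library, their median mean was 269.6 FPKM, and their median CV was 16.6% against 26.5% over all genes whose mean reached 1 FPKM. Of the elongation factor copies of the REFA1 type, LOC_Os03g08050 had 933, 744 and 1022 FPKM. LOC_Os03g08010 had 895, 796 and 878 FPKM. LOC_Os03g08020 had 478, 388 and 458 FPKM. These neighbours are near-identical, so how reads are split among them is uncertain. GAPC, a cytosolic glyceraldehyde-3-phosphate dehydrogenase, had 242, 300.4 and 446 FPKM. ACT2, an actin, was the least steady at 76.3, 37.2 and 35 FPKM (CV 46.9%), with replicate 1 the high one.

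Spread between the 3 libraries was widest in the lowest class of level. The median CV was 29.8% for the 9892 genes from 1 to 10 FPKM, 23.4% for the 8068 from 10 to 100, 23.8% for the 1092 from 100 to 1000 and 26.9% for the 37 at 1000 and over. A CV over 50% was found for 2799 of 19089 genes (14.7%), and a CV under 10% for 2214 (11.6%). The smallest CVs given above include 0.869% for LA1, 1.64% for MADS55 and 1.68% for SBE1. The median-of-ratios factors of the libraries (0.929, 1.07 and 1.01) differ by more than these CVs. Such small CVs describe unscaled FPKM in 3 libraries and do not rank genes by steadiness. The loci of largest spread, LOC_Os06g35480 with 0.0753, 0.0176 and 3.4 FPKM and LOC_Os01g33960 with 6.08, 0.134 and 0.0333 FPKM, were both low and carried by 1 library.

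**Figure D5:**
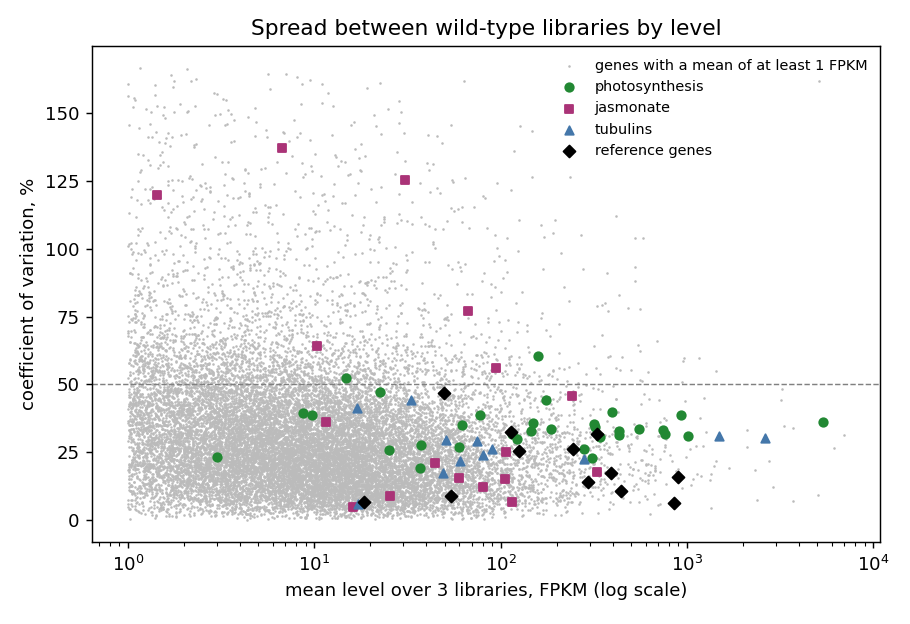
Coefficient of variation over the 3 wild-type libraries in percent (vertical axis) against mean level in FPKM (horizontal axis, log scale) for the 19089 genes whose mean reached 1 FPKM (grey) and for 4 gene lists, with a dashed line at 50%. The reference genes lie between 6.18% and 46.9%, and TIFY10C is the highest of the jasmonate genes at 137%.

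The library that stood apart is given for genes of large spread and for genes at large, with no test between them. For each gene the library farthest from the other libraries on the log2(FPKM + 1) scale was taken. Among the 2799 genes with a CV over 50%, replicate 3 was the far one on the high side for 1147 (41.0%), against 21.3% of all 19089 genes. A CV on the linear scale can grow larger with 1 high value than with 1 low value, so the choice of genes itself favours the high side, and the shares are a description only. Replicate 1 on the low side accounted for 531 (19.0%) of them, against 25.4% of all genes, and replicate 2 on the low side for 31 (1.11%), against 6.01%. The wild-type libraries were also more spread than those of the other lines: the median CV was 26.5% in wild type, against 17.04% in TAC4-KO, 18.5% in TAC4L-KO and 18.5% in double-KO, each over its own genes whose mean reached 1 FPKM. A CV over 50% was found for 14.7% of genes in wild type, against 8.09%, 9.81% and 5.30% in those lines in the same order. The difference in spread between lines was not tested, and the wild-type group holds the shallowest of the 12 libraries. The wild-type median CV was 20.04% without replicate 1, 26.7% without replicate 2 and 18.4% without replicate 3; these rest on 2 libraries each and cannot be set beside the values over 3.

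The 408 listed genes in the table were richer in expressed genes than the table as a whole, as 298 of them (73.0%) were at 1 FPKM or more in every library against 31.4% of all loci; the lists name well-studied genes and are not a sample of the genome. Expressed loci were also unevenly spread over the chromosomes of the table. Chromosome 3 had 2401 of its 5568 loci (43.1%) at 1 FPKM or more in every library and held 14.6% of the FPKM, whereas chromosome 11 had 860 of 4160 (20.7%) and held 5.74%. The 185 loci outside the numbered chromosomes held 0.0862% of the FPKM.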

How the data were processed

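Poly(A) RNA of rice culms was sequenced, and the values used were the FPKM values deposited by the authors, 1 column for each of 12 libraries and 55986 loci, of which the 3 wild-type columns gave every level. The authors used HISAT2 (version not stated), per the submitters' processing notes. For the quantifier, build, annotation and strandedness nothing is given in the sources used here, so overlapping or antisense genes and near-identical copies are uncertain.

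Means, SDs, ranks and CVs were computed with Python 3.11.15, pandas 2.3.3 and numpy 2.4.6. Correlations used log2(FPKM + 1). Depth was inferred from 591 genes whose low FPKM values step by whole fragments (coherence 0.951); this and the spread by line are the uses made of the other 9 libraries. Intervals were not given, and counting errors cover counting only. The calculations were tested on simulated data. No test was run, as 1 condition was described.

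The members and the 35 gene lists were chosen with earlier results of these data known. Names were paired with loci from published rice nomenclature. Of 411 pairs, 282 were found as genes and 15 as families on the stated chromosome and in order in the RefSeq table of assembly ASM3414082v1, and 114 were not found and enter counts only (3 listed loci are not analysed here). TAC4 and TAC4L follow the labels. Named are all checked genes whose mean reached 1 FPKM on the wall, tubulin, tiller angle and starch lists, and elsewhere up to 4 by mean plus the largest and smallest CV. Some genes under this rule are not reported here. GBSSI, AMY1A, LSI2 and HD3A were added after their values were seen.

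Alternatives were other scalings, thresholds, a pseudocount, measures of spread, and leaving out each library.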

Additional observations from a re-analysis of the deposited data

How the results depend on the processing

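Under every scaling, threshold and left-out library tried, the number of loci at 1 FPKM or more in every library stayed within 1.5 times. So did the 298 listed genes at that level. The share of FPKM in the 10 highest genes is a ratio within each library, so scaling cannot change it. Leaving out 1 of 3 libraries cannot move its mean by the SD between libraries, so neither setting is a check of that share. The share was 7.17% without the 2 first-numbered loci of chromosome 9, a setting chosen after seeing the data. Without 1 library at a time, the number of loci ranged from 17742 to 18184 and the number of listed genes from 301 to 305. Both counts ask for the level in every library, so leaving 1 out cannot lower them. The share ranged from 6.41% to 8.68% in the same settings. Mean pairwise Pearson's r was 0.965. It was 0.930 when only genes whose mean reached 1 FPKM entered. Without 1 library at a time it was 0.948 to 0.974, the lowest without replicate 2. Each of these is the r of the only pair left, so they repeat the pairwise values on fewer genes and are no check. The 2799 genes with a CV over 50% became 968 at a mean of at least 10 FPKM and 9949 at any mean above 0, as fewer or more low genes entered. They ranged from 2276 to 4131 with 1 library left out, where 2 libraries give each CV. Rescaling each library to a sum of 1000000 raised every level. It moved 30 of 35 list medians and 138 of 156 genes under the naming rule by more than the SD between libraries. Median-of-ratios scaling moved none of them. Its factors (0.929, 1.07 and 1.01) lie around 1, so a mean over the 3 libraries could hardly change, and that setting is no check of levels. Leaving out a library moved 1 list median. For a single gene, leaving out 1 of 3 libraries cannot move the mean by its SD, so that setting is no check of gene levels. No paired analysis was possible because no groups were compared. Replicate 1, the shallowest library, limits the precision of genes near 1 FPKM, and with 3 libraries each SD is itself imprecise.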
